A study of Homo sapiens with 32 samples.

Results

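The genes described here are 50 assembly factors of the large ribosomal subunit and their sgRNAs in a pooled CRISPR-knockout screen. They form a named set by function, which was chosen with earlier results of these data known. Of the 50 symbols, 49 matched an Ensembl identifier of the count table, out of 18638 genes in all, and each was targeted by 4 sgRNAs, which gave 196 sgRNAs. The remaining symbol, PPAN, matched no gene entry of its own. The screen was run in RKO, an established human colon carcinoma cell line that had been made to express the kinase recorder Kinprola PKA together with Cas9 from a lentiviral cassette and selected for EGFP as a bulk population. After transduction with the HD CRISPR sublibrary A and puromycin selection, the cells were labeled with the fluorescent substrate CPY-CA on day 6 and sorted by their CPY-CA/EGFP ratio into a low population (around 25% of cells), a medium population (around 50%, called basal in the sample labels) and a high population (around 25%). Labeling of the recorder depends on phosphorylation by protein kinase A (PKA), and EGFP, fused to the recorder, normalizes for its amount. The experiment was carried out as 2 screens, which the sample titles call replicates 2 and 3, each with 1 library per population and 1 of day 0 (T0).

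Ribosome assembly starts in the nucleolus, where the ribosomal RNA precursor is cut, modified and folded together with ribosomal proteins. Assembly factors join and leave the growing large subunit in a set order: helicases and scaffold proteins act early, AAA ATPases and GTPases drive the later steps, and an export adaptor and cytoplasmic factors finish the particle. Most of these factors are needed for proliferation, so cells that carry a working knockout are expected to become fewer in a growing pool, independently of the recorder.

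Each library held between 23369720 and 31777138 reads, with a median of 260 to 356 reads per sgRNA. The mean raw count per sgRNA of a member ranged from 99.1 for RPL7L1 to 772 for SURF6, with a median of 231.5. Over the sgRNAs of all genes the mean was 369, which is not the same statistic as a median. These counts average all libraries, sorted ones included, so a fall since T0 lowers them. Of the 196 sgRNAs, 10 had a mean under 50 reads. Reads below are scaled to the mean library total and summed over the 4 sgRNAs of a gene, and a fold change is the log2 difference (pseudocount of 1 read) between populations within a screen, averaged over sgRNAs and then over the screens. A gene was called at a Benjamini-Hochberg FDR under 0.05 in limma, adjusted over the whole table. The reads count PCR products of the sgRNA cassette and not independent molecules.

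Knockouts of the large subunit assembly factors were found far more often among cells with low labeling than among cells with high labeling. In high versus low, 44 of the 49 members were lower and 0 were higher, where 2.73% of all 18638 genes were lower and 5.25% were higher. At an unadjusted p under 0.05, 0 members were higher as well, and edgeR, run on single sgRNAs, also called 0 of their 196 sgRNAs higher. The median log2 fold change of the members was −1.30, and that of all genes was −0.01. Of the 44 called members, 33 had fallen by a log2 of 1 or more and 4 by a log2 of 2 or more, and the smallest called change had a size of 0.45 (DDX18). Of the 50 genes with the lowest values in the whole table, 20 were members, and of the 100 lowest 32 were. Both screens gave the same sign for all 49 members, and their values differed between the screens by a median of 0.17. The correlation between the screens across the 49 members was r = 0.85 (rho = 0.85), and across all 18638 genes it was r = 0.73 (rho = 0.38). Genes are not independent replicates here, since they share the libraries. The set was chosen with earlier results known, so these counts describe it and do not test it as a whole.

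**Figure D1:**
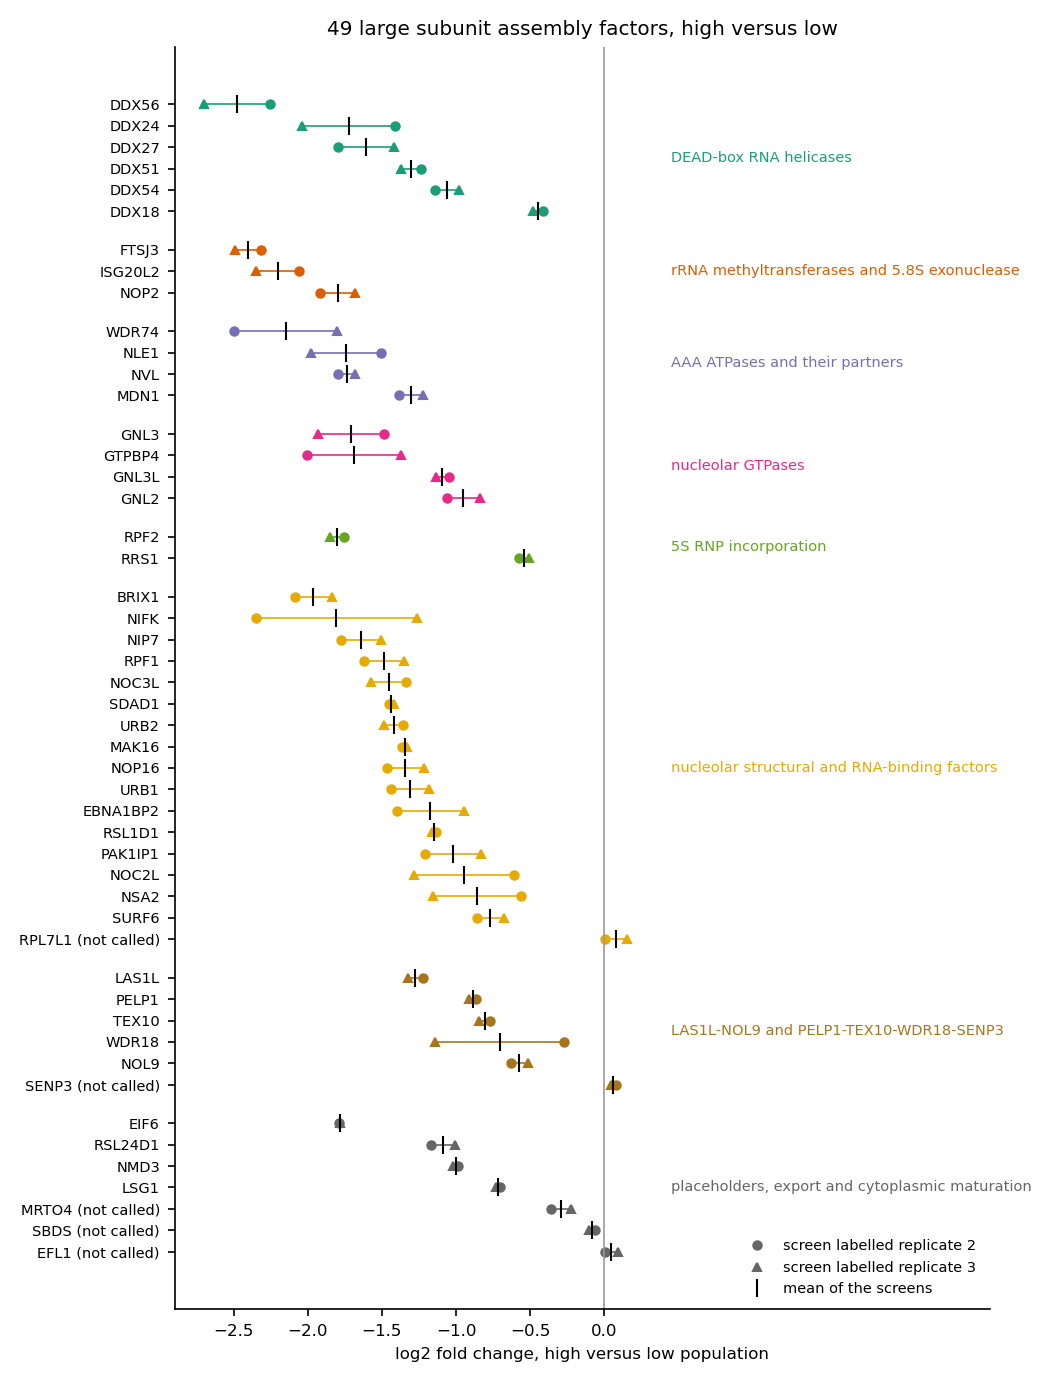
The log2 fold change of high versus low (x axis) for each of the 49 large subunit assembly factors, grouped by role, with 1 point per screen and a bar at the mean. Both screens lie below 0 for 46 members, and RPL7L1, SENP3 and EFL1 lie at or just above 0.

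The DEAD-box RNA helicases, which remodel RNA in the early nucleolar particles, were lower in 6 of 6 cases, with a median of −1.46. DDX56 (chr7:44565804-44575051, minus strand, GRCh38) had the lowest value of all members and ranked at position 2 in the whole table. In the order replicate 2 and replicate 3, it had 1144 and 1106 scaled reads at T0, 959 and 661 in the low, 219.5 and 315 in the medium and 185 and 145 in the high libraries. Both high libraries thus lay below every other library, and the low and high libraries did not overlap. Its log2 fold change was −2.26 and −2.70 in the screens, with a mean of −2.48 ± 0.13 (limma, SE, n = 2 screens, adjusted p = 2.37e-07), which is a 5.57-fold higher representation in low than in high. When the low library of replicate 2 was left out, DDX56 lost its call (limma, adjusted p = 0.0608) at a log2 of −2.32. DDX24 reached −1.72 ± 0.14 (limma, SE, n = 2 screens, adjusted p = 7.16e-06), and it lost its call without either low library (limma, adjusted p = 0.058 without replicate 2 and 0.0689 without replicate 3). DDX27 (−1.61) and DDX51 (−1.30) followed, and DDX54 was at −1.06 ± 0.11 (limma, SE, n = 2 screens, adjusted p = 4.53e-05). DDX18 was the called member nearest to the threshold, at −0.45 ± 0.11 (limma, SE, n = 2 screens, adjusted p = 0.0242). It had 1268 and 1344 scaled reads at T0, 562 and 530.5 in the low, 431 and 434 in the medium and 407 and 425 in the high libraries, so that its low and high libraries were separated by a small margin while all 6 sorted libraries lay far below T0. DDX18 lost its call under several other settings, among them the removal of any 1 high or low library (limma, adjusted p from 0.145 to 0.292).

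The ribosomal RNA methyltransferases and the exonuclease of the set were lower in 3 of 3 cases, with a median of −2.20. FTSJ3, which methylates the ribose of precursor ribosomal RNA, ranked at position 4 of all genes. It lies at chr17:63819433-63830012, minus strand, and had 1696 and 1368 scaled reads at T0, 1369 and 1347 in the low, 455 and 453 in the medium and 265 and 315 in the high libraries. The high libraries lay below the medium libraries and the low libraries lay near T0 in replicate 3. Its log2 fold change was −2.31 and −2.49 in the screens, with a mean of −2.40 ± 0.11 (limma, SE, n = 2 screens, adjusted p = 1.42e-07). ISG20L2, an exonuclease that trims the end of a small ribosomal RNA of the large subunit, had 1618 and 1699 scaled reads at T0, 1489.7 and 1333 in the low, 439.9 and 561 in the medium and 354 and 282 in the high libraries. All medium and high values of ISG20L2 were below both low values, and the mean log2 fold change was −2.20 ± 0.12 (limma, SE, n = 2 screens, adjusted p = 2.69e-07). NOP2, a methyltransferase of large subunit ribosomal RNA, is the member that the study followed up with single knockouts. It lies at chr12:6556863-6568691, minus strand, and had 1119.9 and 1095 scaled reads at T0, 1041 and 834 in the low, 589 and 466 in the medium and 356 and 299 in the high libraries. NOP2 fell in steps from low over medium to high in both screens, and its log2 fold change was −1.92 and −1.68 in the screens, with a mean of −1.80 ± 0.11 (limma, SE, n = 2 screens, adjusted p = 8.69e-07). It ranked at position 25 of all genes, behind 7 other members. For single knockouts of NOP2, the study reports less recorder labeling, and in cell lysates subtle or nonsignificant changes of PKA activity.

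The AAA ATPases and their partners, which pull assembly factors off the particle, were lower in 4 of 4 cases, with a median of −1.74. WDR74, the partner of the ATPase NVL, had 1681 and 1245 scaled reads at T0, 1043 and 658 in the low, 278 and 284 in the medium and 187 and 182 in the high libraries. Its low and high libraries did not overlap, and its log2 fold change was −2.50 and −1.80 in the screens, with a mean of −2.15 ± 0.15 (limma, SE, n = 2 screens, adjusted p = 1.76e-06). NVL itself was at −1.74 ± 0.11 (limma, SE, n = 2 screens, adjusted p = 8.58e-07). NLE1, on which the giant ATPase MDN1 acts, was at −1.74 ± 0.13 (limma, SE, n = 2 screens, adjusted p = 2.84e-06), and MDN1 at −1.31.

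The nucleolar GTPases were lower in 4 of 4 cases, with a median of −1.39. GNL3, also known as nucleostemin, was at −1.71 ± 0.13 (limma, SE, n = 2 screens, adjusted p = 2.97e-06), and GTPBP4 at −1.69 ± 0.14 (limma, SE, n = 2 screens, adjusted p = 8.59e-06). GNL3L, a relative of GNL3, was at −1.09 and GNL2 at −0.95. Of the pair that brings the small ribosomal RNA particle with RPL5 and RPL11 into the subunit, RPF2 was at −1.81 ± 0.11 (limma, SE, n = 2 screens, adjusted p = 6.16e-07) and its partner RRS1 at −0.54 ± 0.11 (limma, SE, n = 2 screens, adjusted p = 0.00731). The limma intervals (95%) of these partners did not overlap, with −2.04 to −1.57 for RPF2 and −0.78 to −0.30 for RRS1. RRS1 lost its call when the high library of replicate 2 or either low library was left out (limma, adjusted p from 0.178 to 0.299).

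The largest group, 17 structural and RNA-binding factors of the nucleolar particles, was lower in 16 cases, with a median of −1.34. BRIX1, a scaffold protein of early particles, had 1889 and 1894 scaled reads at T0, 1527 and 1254 in the low, 586 and 536 in the medium and 331 and 347 in the high libraries. Its low and high libraries were well separated, and the mean log2 fold change was −1.96 ± 0.11 (limma, SE, n = 2 screens, adjusted p = 4.7e-07). NIFK, which also binds the proliferation protein Ki-67, was at −1.81 ± 0.19 (limma, SE, n = 2 screens, adjusted p = 5.95e-05) and had the largest disagreement between the screens (−2.35 and −1.26). NIP7, an RNA-binding factor, was at −1.64 ± 0.12 (limma, SE, n = 2 screens, adjusted p = 1.9e-06). Between −1.49 and −1.34 lay, in this order, RPF1, NOC3L, SDAD1, URB2, MAK16 and NOP16, followed by URB1 (−1.31), EBNA1BP2 (−1.17), RSL1D1 (−1.15), PAK1IP1 (−1.02), NOC2L (−0.95) and SURF6 (−0.77). NSA2 was at −0.86 ± 0.14 (limma, SE, n = 2 screens, adjusted p = 0.00163), with −0.56 and −1.16 in the screens, and lost its call when either the high or the low library of the replicate 3 screen was left out (limma, adjusted p = 0.118 and 0.158). RPL7L1, a relative of the ribosomal protein RPL7, was the only member of this group not called, at 0.08 ± 0.11 (limma, SE, n = 2 screens, adjusted p = 0.806).

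Of the factors that cut and trim the internal spacer of the precursor (LAS1L and its partner NOL9) and the associated PELP1, TEX10, WDR18 and SENP3, 5 of 6 were lower, with a median of −0.76. LAS1L, the endonuclease, was at −1.27, PELP1 at −0.89, TEX10 at −0.81 and NOL9, a polynucleotide kinase, at −0.57. WDR18 was at −0.71 ± 0.17 (limma, SE, n = 2 screens, adjusted p = 0.0228), with −0.27 and −1.14 in the screens, and was no longer called when limma was fitted to the separate libraries with the replicate as a block (adjusted p = 0.0728) or when the differences were centred on sgRNAs without a target (adjusted p = 0.105), nor without the low library of either screen or the high library of replicate 3 (limma, adjusted p from 0.0891 to 0.487). SENP3, a SUMO protease of this complex, had 1028 and 929 scaled reads at T0, 942 and 898 in the low, 892 and 955 in the medium and 961 and 943 in the high libraries. Its high libraries lay slightly above its low libraries, with T0 in the same range, and the log2 fold change was 0.06 ± 0.11 (limma, SE, n = 2 screens, adjusted p = 0.85), with a 95% interval of −0.18 to 0.30.

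The group of placeholders, export and cytoplasmic maturation factors was called least often, with 4 of 7 lower and a median of −0.72. EIF6, which keeps the immature large subunit from joining the small subunit, was the exception in size. It had 2199 and 2264 scaled reads at T0, 2499 and 2308 in the low, 1149 and 1093 in the medium and 750.5 and 713 in the high libraries. Its low libraries lay above T0 in both screens while its high libraries lay far below T0, and the log2 fold change was −1.78 ± 0.11 (limma, SE, n = 2 screens, adjusted p = 6.16e-07), with −1.79 and −1.78 in the screens. RSL24D1, a placeholder for a ribosomal protein, was at −1.09, the export adaptor NMD3 at −0.99 and −1.02 in the screens, and LSG1, the GTPase that releases NMD3 in the cytoplasm, at −0.72. MRTO4, another placeholder, was the uncalled member nearest to the threshold, at −0.29 ± 0.11 (limma, SE, n = 2 screens, adjusted p = 0.166). SBDS and EFL1, which together release EIF6 from the finished subunit, were at −0.08 ± 0.11 (limma, SE, n = 2 screens, adjusted p = 0.791) and 0.05 ± 0.11 (limma, SE, n = 2 screens, adjusted p = 0.888). Their 95% intervals were −0.32 to 0.15 for SBDS and −0.19 to 0.28 for EFL1, and that of EIF6 was −2.02 to −1.55. The spread between the sgRNAs of a gene is not part of these intervals.

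The reads can also be given as shares of the gates, with each population weighted by its share of the cells, so that a knockout without effect has 25% of its reads in the low, 50% in the medium and 25% in the high gate. Over the 44 called members and both screens, the share in the low gate ranged from 29.1% to 60.6% and the share in the high gate from 10.1% to 23.9%. DDX56 had 60.6% and 46.1% in the low gate and 11.7% and 10.1% in the high gate. NOP2 had 40.4% and 40.4% in the low gate and 13.8% and 14.5% in the high gate. SENP3 had 25.5% and 23.9% in the low gate and 26.1% and 25.2% in the high gate. In 46 members the summed reads of both high libraries lay below those of both low libraries, which held for 25.5% of all genes.

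**Figure D2:**
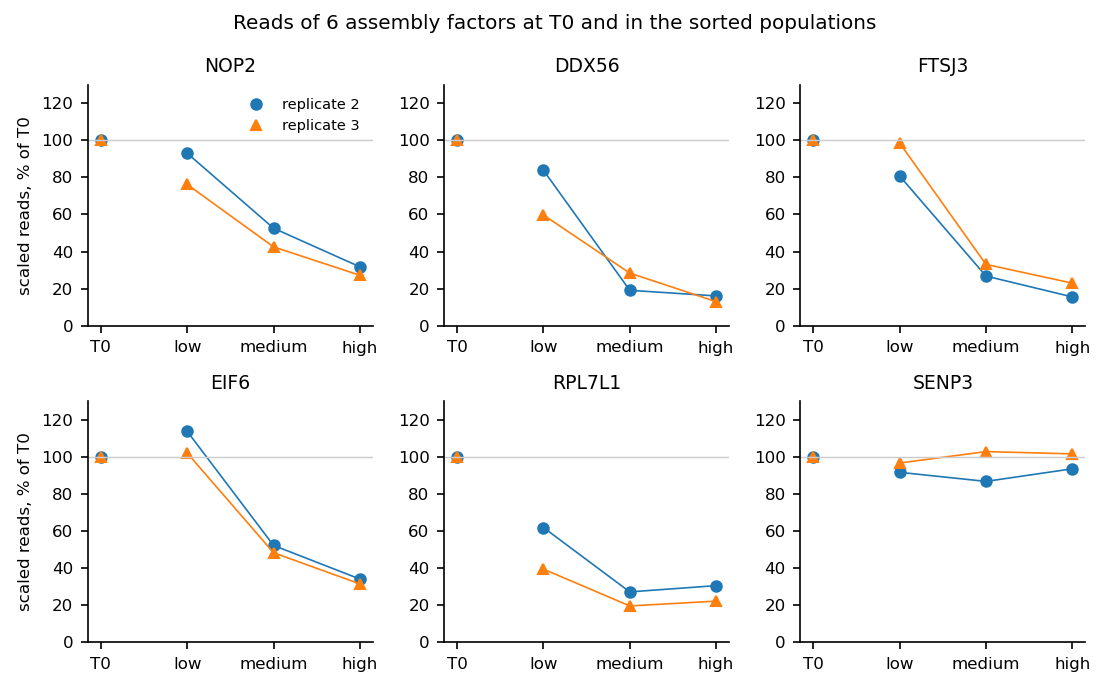
Scaled reads of 6 members, summed over 4 sgRNAs and given as a percentage of T0 of the same screen (y axis), at T0 and in the low, medium and high populations (x axis), with 1 symbol per screen. NOP2 falls in steps from low to high, DDX56, FTSJ3 and EIF6 are highest in low, RPL7L1 is below T0 in all populations, and SENP3 stays near T0.

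The medium population separates the change on the low side from that on the high side, and both comparisons share its libraries. In low versus medium, 43 members were higher and 0 were lower, where 1.18% of all genes were higher and 1.54% were lower, and the median of the members was 0.97 with all 49 above 0, as were 49.8% of all genes. Of these 43, 42 were also lower in high versus low. Among 46 large subunit proteins, 24 were higher and 0 lower in low versus medium, with a median of 0.99. Among 58 small subunit factors, 0 were higher, with a median of 0.08. FTSJ3 was at 1.59 ± 0.11 (limma, SE, n = 2 screens, adjusted p = 0.000451), ISG20L2 at 1.55, WDR74 at 1.50 and NIP7 at 1.48. Fewer members were called when the low library of replicate 2 or replicate 3 was left out. Such a fit leaves 1 low library, which weakens the test for any gene.

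In high versus medium, 3 members were lower and 1 was higher, where 0.0966% of all genes were lower and 1.7% were higher. The 3 lower members were NOP2 at −0.90 ± 0.10 (limma, SE, n = 2 screens, adjusted p = 0.0158), EIF6 at −0.66 ± 0.10 (limma, SE, n = 2 screens, adjusted p = 0.037) and WDR74 at −0.66 ± 0.10 (limma, SE, n = 2 screens, adjusted p = 0.039). The values of 41 of 49 members were below 0, with a median of −0.30, where 52.4% of all genes were below 0. At an unadjusted p under 0.05, 25 members were lower, where 3.39% of all genes were. DDX56 was at −1.03 and was not called, with −0.27 and −1.79 in the screens. The count of lower members varied with the settings, from 2 without 1 library to 13 with the median over sgRNAs in place of the mean.

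An asymmetry value, the sum of the low and high levels less 2 times the medium level, compared both sides of medium. It was above 0 for all 49 members and for 49.5% of all genes, with a median of 0.66 against −0.0029 for all genes and 0.46 for the 570 genes lost since T0, described below. Only RPL7L1 was called higher and 0 members were called lower, where 0.0376% of all genes were higher and 0.0% were lower. At an unadjusted p under 0.05, 33 members were higher, where 4.39% of all genes were. In lists described below, the median was 1.00 for 33 small subunit proteins and 0.58 for 46 large subunit proteins. It was 0.26 for 21 other large subunit factors and 0.09 for 58 small subunit factors. The value of NOP2 was 0.00 ± 0.17 (limma, SE, n = 2 screens, adjusted p = 1), the lowest of the members, so that the changes on both sides of medium were of like size, with a 95% interval of −0.41 to 0.41. NSA2 (1.46) and NIP7 (1.31) had the highest values after RPL7L1 and did not pass the test (limma, adjusted p = 0.145 and 0.241).

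**Figure D3:**
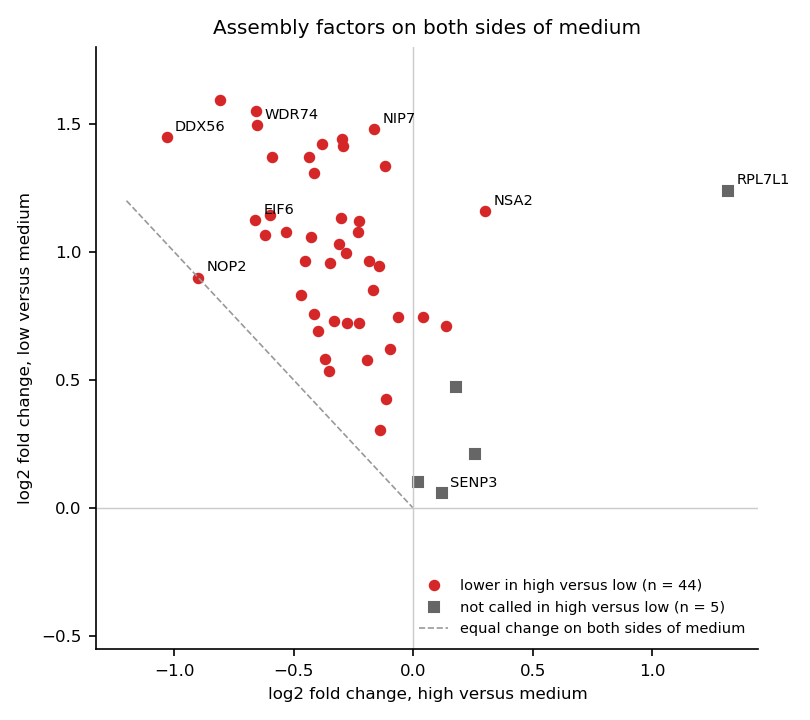
The log2 fold change of low versus medium (y axis) against that of high versus medium (x axis), with 1 point per member as the mean of 2 screens, and a dashed line where both changes are of equal size. NOP2 lies on the line, most members lie above it, and RPL7L1 stands apart with both values above 1.

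RPL7L1 (chr6:42879616-42889925, plus strand) had 713 and 864 scaled reads at T0, 441 and 341 in the low, 194 and 169.6 in the medium and 218 and 192 in the high libraries. Reads were lowest in medium in both screens. It was higher than medium on both sides, at 1.24 ± 0.10 (limma, SE, n = 2 screens, adjusted p = 0.000808) in low and 1.32 ± 0.10 (limma, SE, n = 2 screens, adjusted p = 0.00661) in high, and its asymmetry was 2.56 ± 0.17 (limma, SE, n = 2 screens, adjusted p = 0.0304). The sgRNAs of RPL7L1 did not behave alike. sgRNA 1, with a mean of 246.6 raw reads, was lower in high versus low at −1.55 (edgeR, adjusted p = 3.05e-07), whereas sgRNAs 2, 3 and 4, with 32.5, 71.1 and 46 raw reads, were at 1.07, −0.34 and 1.14 and were not called. The summed reads, to which sgRNA 1 contributed most, were lower in high than in low (ratios of 0.494 and 0.563), while the mean over sgRNAs was near 0. With only the sgRNAs of at least 50 reads, RPL7L1 was at −0.94 and was called lower (limma, adjusted p = 3.32e-06), while in high versus medium it was at −0.25 and not called, and its asymmetry was 0.45 (limma, adjusted p = 0.746). The call in the asymmetry test was also lost with a trend in the spread, with no replicate block and without either low library (limma, adjusted p from 0.0731 to 0.338).

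The decline over the whole experiment was measured by setting the sorted pool, rebuilt from the populations at their gate shares, against T0. The sorted libraries thus enter both this value and high versus low. Of the members, 42 were lower and 0 were higher, where 8.35% of all genes were lower and 2.54% were higher, with a median of −0.95. All members lay below 0 except EFL1, at 0.0011, where 38.8% of all genes lay below 0. The largest falls were those of RPL7L1 at −2.30 ± 0.13 (limma, SE, n = 2 screens, adjusted p = 8.68e-14), WDR74 at −1.83, NSA2 at −1.74, DDX56 at −1.62 and DDX54 at −1.61. For DDX56 this left 34.6% and 32.4% of the T0 reads in the screens, for NOP2 57.5% and 47.1% and for EIF6 63.1% and 57.5%. The 7 members not called against T0 were NOC3L (−0.28), SURF6 (−0.25), LSG1 (−0.19), NOL9 (−0.22), SBDS (−0.23), EFL1 (0.00) and SENP3 (−0.06). SBDS, EFL1 and SENP3 were thus called in neither comparison, whereas NOC3L, SURF6, LSG1 and NOL9 were lower in high versus low.

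High versus low was next described among the genes that fell most since T0. A gene was taken as lost at a log2 of −1 or lower and an FDR under 0.05, which held for 570 genes (3.06%) and 24 members. Among all 570 lost genes, 54.2% were higher and 16.0% were lower in high versus low. Among the 24 lost members, 23 were lower and 0 were higher, and among the 25 members not lost, 21 were lower. DDX18, of which only sgRNA 3 was called, and DDX56 were at −1.58 and −1.62 since T0. In high versus low they were at −0.45 and −2.48. NOC3L was at −1.46 in high versus low and at −0.28 since T0. Across the 49 members, the correlation of both values was r = 0.43 (rho = 0.48), and across the 570 lost genes it was r = −0.10 (rho = −0.14), where the points share the sorted libraries. Whether slower growth takes part in the low labeling of these knockouts was not tested.

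**Figure D4:**
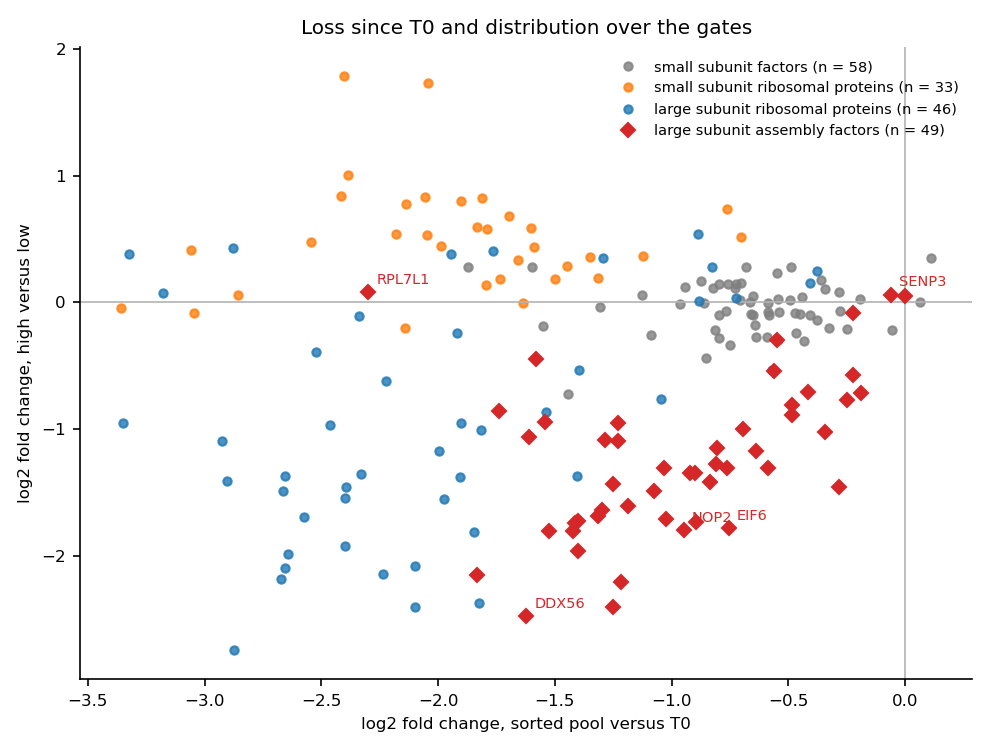
The log2 fold change of high versus low (y axis) against that of the sorted pool versus T0 (x axis), with 1 point per gene as the mean of 2 screens, for the 49 assembly factors of the large subunit, 58 factors of the small subunit and the ribosomal proteins of both subunits. Of the 49 members, 46 lie below 0 on the y axis, over a wide range of loss, and RPL7L1, SENP3 and EFL1 lie at or just above 0. Most small subunit factors lie near 0.

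Single sgRNAs were tested with edgeR on the deposited counts. All 196 sgRNAs of the members could be tested, and 131 of them (66.8%) were lower in high versus low and 0 were higher, where 1.55% of all sgRNAs tested were lower and 2.95% were higher. DESeq2, for which the share over all sgRNAs is not given here, called 109 lower and 0 higher. Without the low library of replicate 2, edgeR called fewer sgRNAs lower. All 4 sgRNAs were lower for 16 members, 3 for 16, 2 for 7, 1 for 5 and none for 5 members. At least 2 sgRNAs were thus lower for 39 members, where 1.34% of all genes reached this, and at least 3 for 32 members, where 0.644% did. Of the 44 called members, 37 had all 4 sgRNAs below 0 in both screens.

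The 4 sgRNAs of NOP2 were at −1.82, −2.24, −1.98 and −1.15 as the mean of the screens, and all were called (edgeR, adjusted p from 2.68e-08 to 0.0438). The value of −2.24, that of sgRNA 2, rests on a mean of only 35.75 raw reads, with 6.97 and 14.2 scaled reads in the high libraries. The sgRNAs of BRIX1 ranged from −2.14 to −1.63, those of WDR74 from −2.41 to −1.95, those of FTSJ3 from −3.19 to −2.08, those of ISG20L2 from −2.73 to −1.25 and those of DDX56 from −3.77 to −1.33, and all of these were called. In DDX56, sgRNA 1 had 0 reads in the high library of replicate 3 and a mean of only 40 raw reads, and its value of −5.38 in that screen depends on the pseudocount. In NIFK, sgRNA 3 had 0 reads in the high library of replicate 2 and a mean of 21.2 raw reads, and NIFK, with 2 called sgRNAs, was the member whose screens differed most. In DDX24, sgRNA 2 had 2.37 scaled reads in the high library of replicate 3 and was at −5.09 in that screen. The sgRNAs of DDX24 ranged from −3.65 to −0.51, and only sgRNAs 2 and 4 were called. Only sgRNA 3 of DDX18 was called, at −1.36. In DDX54, sgRNAs 2 and 3 were called at −1.76 and −2.24, whereas sgRNA 4 was above 0 in both screens (0.34 and 0.81) and not called. None of the 4 sgRNAs of RRS1 was called although all lay between −0.81 and −0.43. No member had sgRNAs called in both directions.

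**Figure D5:**
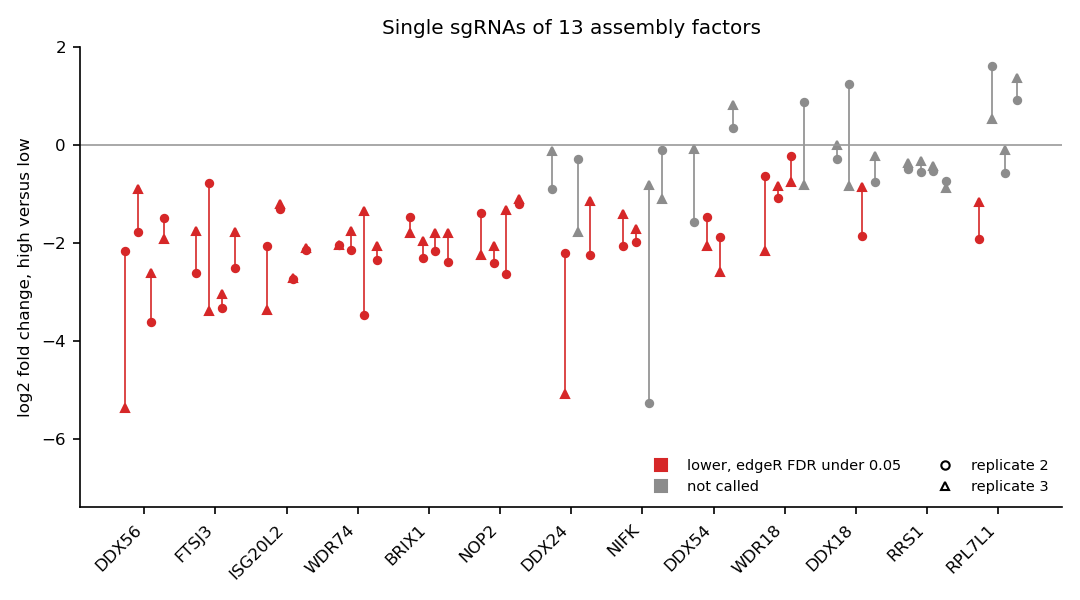
The log2 fold change of high versus low (y axis) for each of the 4 sgRNAs of 13 members (x axis), with 1 symbol per screen, joined by a line. BRIX1 and NOP2 have all 4 sgRNAs called lower, and RRS1 has none called with all below 0. RPL7L1 and DDX54 have sgRNAs above 0 in both screens and others below 0 in both screens. DDX18 and WDR18 each have an sgRNA above 0 in replicate 2 only. DDX24, NIFK, DDX54, WDR18 and RPL7L1 were added after their values were seen.

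The sgRNAs of the members were also grouped by their own fall since T0. Of 93 sgRNAs that had fallen by a log2 of 1 to 2, 72 were lower, with a median of −1.64 in high versus low. Of 49 that had fallen by 0.5 to 1, 38 were lower, with a median of −1.34, and of 48 that had fallen by less or had risen, 21 were lower, with a median of −0.56. The 6 sgRNAs that had fallen by over 2 had a median of −0.42 and 0 were called. They were sgRNAs 2, 3 and 4 of RPL7L1, sgRNA 3 of NOC2L, sgRNA 1 of DDX54 and sgRNA 4 of DDX18. Their mean raw reads were 32.5, 71.1, 46, 34.6, 50.25 and 194 in this order. Few reads limit what a missing call can show for most of them. These groups share the sorted libraries with the value they are set beside and are a description.

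Other genes of ribosome assembly were taken from lists that the members are not part of. The PeBoW complex, which processes the same precursor, was lower in 3 of 3 cases, with WDR12 at −1.84, PES1 at −1.70 and BOP1 at −0.66 (limma, adjusted p = 7.42e-07, 1.11e-06 and 0.00188). Of 21 other large subunit factors, 10 were lower and 0 were higher, with a median of −0.27. Among these were NOL12, a nucleolar exonuclease, at −1.53, RRP1 at −1.08, TMA16 at −0.98 and CINP at −0.93. The readthrough entry PPAN-P2RY11, which overlaps PPAN and was not counted as a member, was at −1.24.

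The small subunit and its proteins gave other values. Of 58 assembly factors of the small subunit, 2 were lower (WDR43 at −0.72 and NOL11 at −0.44) and 0 were higher, with a median of −0.02. Compared with T0, 51 of the 58 were lower, with a median of −0.65. Of 46 proteins of the large subunit, 30 were lower and 1 was higher, with a median of −0.99, and of 33 proteins of the small subunit, 0 were lower and 17 were higher, with a median of 0.48. Among assembly factors, the median was thus −1.30 for the 49 members, −0.27 for 21 other large subunit factors and −0.02 for the small subunit factors. Members and lists were chosen with earlier results of these data known, and no test was made of the difference between these lists.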

How the data were processed

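Genomic DNA from sorted RKO cells was amplified at the sgRNA cassette and sequenced over 4 lanes per library. The authors counted reads per sgRNA with MAGeCK and deposited raw counts per sgRNA and lane. An aligner and a genome build are not given in the sources used here. A further 4 columns of the deposited table match no sample and were left out. Lanes were added up per library, since they differed by about the sampling noise, which gave 8 libraries of 23369720 to 31777138 reads. Samples were grouped by their titles.

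Each library was scaled to the mean total of the libraries, and log2 was taken after adding 1 read. Differences between populations were computed within each screen and averaged over sgRNAs. The mean of 2 screens was tested against 0 with lmFit and eBayes of limma 3.58.1 in R 4.3.3, with Benjamini-Hochberg adjustment over 18659 entries, 21 of them controls, and calls were counted over 18638 genes. With 2 screens, p-values rest on the spread pooled over genes. Since sgRNAs were averaged first, the p-values, errors and intervals of genes leave out the spread between sgRNAs. The study describes both screens as independent of each other. The sorted pool was rebuilt as 0.25, 0.5 and 0.25 of the scaled reads of high, medium and low. For single sgRNAs the quasi-likelihood test of edgeR 4.0.16 was used (TMM, filterByExpr, screen as a block), with DESeq2 1.42.0 as an alternative. Both tests were tried on simulated data. Core-essential genes were not removed. Gene names and positions (GRCh38) were taken from GENCODE release 44.

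The members and lists (roles, PeBoW, other large subunit factors, small subunit factors, ribosomal proteins, RNA polymerase I) were chosen with earlier results of these data known, so no list was tested as a whole. All members are accounted for by role. Values with their error are given for the called members with the lowest values (up to 15), NOP2, the 5 largest falls since T0, the members called in the asymmetry test and the members nearest to the threshold. From the other lists, at most 4 genes with the smallest adjusted p are named, and the PeBoW genes in full. Alternatives covered the pseudocount, a filter on low counts, the normalization, the summary over sgRNAs, the error model, the screen as a block, the rebuilt pool and leaving out each library.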

Additional observations from a re-analysis of the deposited data

Results flagged for a closer look

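RPL7L1 passed the test for a difference between the changes on both sides of the medium population. Low plus high minus 2 times medium was 2.56 in limma (adjusted p = 0.0304), with 2.56 and 2.55 in the screens. The mean over its sgRNAs was higher than medium in low and in high, and the sgRNAs did not behave alike: sgRNA 1 had 88.0 and 131.5 scaled reads in high against 143.9 and 130.1 in medium, and only sgRNAs 2 and 4 were above medium in every high and low library. The call was lost with sgRNAs of at least 50 reads, which leave sgRNAs 1 and 3 (0.45, adjusted p = 0.746), with a trend in the spread (adjusted p = 0.0731), with no replicate block (0.338) and when 1 low library was left out (0.152 without replicate 2, 0.104 without replicate 3). Of 18638 genes, 7 passed this test. RPL7L1 had the fewest raw reads per sgRNA of all members (99.1), and its medium libraries held 1.82 and 5.33 scaled reads of sgRNA 2 and 12.8 and 0 of sgRNA 4, the pair that the minimum of 50 reads removes.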

How the results depend on the processing

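In high versus low, the called members given with their error kept their direction under the settings tried. With all libraries kept, 42 to 45 members were lower under the other settings. Fewer members were lower when a low library was left out. A fit without 1 library leaves 1 library in that population, which weakens the test for any gene. Counts from such fits are given here without the share of all genes called, so they do not separate members from other genes. With limma on the separate libraries, 43 members were lower with the replicate block and 42 with no replicate block. The main fit takes differences within a screen and so holds the block by construction. The deviations of libraries with the same number had a correlation of 0.13 between high and medium, of 0.09 between high and low, and of 0.13 between medium and low. Centring on sgRNAs without a target moved the median of all genes to 0.10 and that of the members to −1.19.

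Low versus medium gave 6 to 43 higher members over the left-out libraries. High versus medium gave 7 lower members with a pseudocount of 5 reads, 8 with sgRNAs of at least 50 reads, 5 with DESeq2 size factors, 8 with centring and 13 with the median over sgRNAs, with 2 to 10 over the left-out libraries. Its count of higher members was 0 with sgRNAs of at least 50 reads, with a trend in the spread and with no replicate block. The asymmetry test gave 4 higher members with a pseudocount of 5 reads, 3 with sgRNAs of at least 50 reads, 5 with centring, 13 with the median, 0 with a trend and 0 with no replicate block, and 0 to 5 over the left-out libraries. Lower sgRNAs numbered 81 to 131 over the left-out libraries, 109 in DESeq2 and 117 in edgeR with no replicate block. The sorted pool versus T0 gave 38 to 48 lower members.

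RPL7L1 changed sign in high versus low with a pseudocount of 5 reads (−0.0047) and with sgRNAs of at least 50 reads (−0.94), and SBDS with centring (0.030), and in high versus medium RPL7L1 changed sign with sgRNAs of at least 50 reads (−0.25). The causes were not tested. Few reads are a limit for single members such as RPL7L1, and the counts of calls depended on the low libraries.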

Other observations

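RNA polymerase I transcribes the precursor of the large ribosomal RNAs upstream of the assembly factors. Its list of 14 genes held polymerase subunits and the initiation factors RRN3, UBTF, TAF1A, TAF1B, TAF1C and TAF1D. Of these 14 genes, 7 were lower in high versus low and 0 were higher, with a median log2 fold change of −0.40. POLR1C was at −0.88, POLR1F at −0.85, POLR1E at −0.78 and POLR1B at −0.72 (limma, adjusted p = 0.00026, 0.00133, 0.000615 and 0.00163). POLR1C is shared with RNA polymerase III. Compared with T0, 9 of the 14 genes were lower, with a median of −1.02, and in low versus medium 1 was higher, with a median of 0.25.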
